A study of Mus musculus with 4 samples.

Results

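The CXC chemokine ligands followed here are 9 genes, Cxcl1, Cxcl2, Cxcl3, Cxcl9, Cxcl10, Cxcl12, Cxcl13, Cxcl16 and Pf4. They were taken by symbol from the gene column of the deposited single-cell count tables, where each matched 1 gene. Their transcripts were counted in 41533 cells of the mouse heart, by library and by marker-gated cell type. All cells were CSF1R-EGFP+ and Ly6G- by flow sorting, from mice 12 to 16 weeks old that carry an EGFP reporter under the Csf1r promoter. The baseline group was 1 library that pooled 3 hearts without surgery. There were 3 infarct libraries, each from a single heart taken 7 days after permanent ligation of the left coronary artery, with the remote non-infarcted tissue cut away. The sort selects cells by a reporter and not by a lineage, so that monocytes, dendritic cells, B cells and a few endothelial cells pass it as well as macrophages. The label of myeloid cells was checked against marker genes, and 90.2% of the cells passed a myeloid gate.

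Chemokines are small secreted proteins that steer leukocytes along gradients by binding G protein-coupled receptors. In CXC chemokines a single residue separates the first pair of conserved cysteines. Cxcl1, Cxcl2 and Cxcl3 carry the ELR motif and attract neutrophils through Cxcr2, and NF-kappaB signalling is their best known inducer. Cxcl9 and Cxcl10 are induced by interferons and bind Cxcr3, mainly on T and NK cells. Cxcl12 retains leukocytes through Cxcr4, and Cxcl13 organises B cells through Cxcr5. Cxcl16 is made as a membrane-bound protein that also takes up oxidised lipoprotein, is shed by Adam10 and Adam17, and binds Cxcr6. Pf4, or Cxcl4, is best known from platelet granules and is also transcribed by tissue macrophages.

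On GRCm38, 7 of the 9 genes lay on chromosome 5. Pf4 was at chr5:90772435-90773383, and its start was 2372 bases past the end of Ppbp, another platelet CXC ligand. Cxcl3 followed at chr5:90786103-90789600, then Cxcl1 at chr5:90891241-90893115 and Cxcl2 at chr5:90903871-90905938, all on the forward strand. Cxcl9 (chr5:92321347-92328079) and Cxcl10 (chr5:92346638-92348889) were neighbours on the reverse strand, and Cxcl13 was at chr5:95956951-95961068. Cxcl12 was at chr6:117168535-117181367 and Cxcl16 at chr11:70453983-70459984. The tables counted reads at 3' ends over whole genes, so levels were not divided by length, and differences in level between genes may include differences in capture.

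Because the neutrophil-attracting and the interferon-induced ligands are known for NF-kappaB and interferon sites before their starts, these stretches are shown. They come from RefSeq promoters of GRCm38.p6, which matched 8 of the 9 members and not Cxcl16, and the 250 bases before each start were searched on both strands. Matches to the kB consensus, the binding motif of NF-kappaB, are in capitals, and each sequence is written 5' to 3' on the strand of its gene.
Cxcl1, chr5:90891164-90891193: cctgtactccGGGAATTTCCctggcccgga
Cxcl2, chr5:90903792-90903821: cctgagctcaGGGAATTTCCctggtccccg
Cxcl3, chr5:90786018-90786047: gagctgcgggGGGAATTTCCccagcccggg
Cxcl10, chr5:92349029-92349058: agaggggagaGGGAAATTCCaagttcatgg
Cxcl10, chr5:92348973-92349002: cggtttacagGGGACTTCCCtcgggttgcg
The matches of Cxcl1, Cxcl2 and Cxcl3 have the same letters, and each overlaps a further match on the other strand that is shifted by 1 base. A match to the letters GAAANNGAA, a core of interferon-responsive elements, is in capitals in the following stretches.
Cxcl9, chr5:92328236-92328265: cccgtttatgtGAAATGGAAgtagaacatg
Cxcl10, chr5:92349084-92349113: ctcacgctttgGAAAGTGAAacttacctca
Of 32851 promoters, 3.90% held a kB consensus and 7.13% held GAAANNGAA. The letters TTCNNNGAA, found in interferon-gamma activated sites, were in 7.02% of promoters and in no window of a member. These are matches of letters and not measured sites.

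The filter kept 10238 baseline cells and 10117 to 10782 cells per infarct library, with a median of 6398.5 unique molecular identifiers (UMIs) per cell at baseline and 8469.5 to 8556.5 in infarcts. Levels are counts per 1e6 UMIs of the summed cells (CPM), without mitochondrial genes. Cells were assigned to gates by summed markers, none of which was a CXC ligand or receptor. Gates are named by their markers, and the names rest on transcripts alone. The baseline is a single library, so that its comparison with infarcts has no replicate check and no test, and its intervals are exact Poisson intervals at 95% that cover counting error only. Fewer cells of a type and less RNA per cell cannot be told apart in a library's total.

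Taken over whole libraries, Cxcl16, Cxcl10 and Cxcl3 were at least 2-fold higher in the infarct mean with every infarct library above baseline, whereas Pf4, Cxcl12 and Cxcl13 were at least 2-fold lower with every infarct library below it. Cxcl1, Cxcl2 and Cxcl9 met neither rule. Over the 11573 genes that averaged 1 CPM or more, 3.71% were at least 2-fold higher by the same rule and 9.59% at least 2-fold lower. The median log2 ratio of all these genes was -0.23 and that of the members was 0.40. Scaling by trimmed means (TMM) moved the median of all genes by 0.29, to 0.05, and under it Cxcl9 passed 2-fold as well.

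Cxcl16 was at 234 CPM in the baseline library, with an interval of 231 to 238, and at 581, 749 and 614 CPM in infarct replicates 1, 2 and 3. The infarct mean of 648 ± 89.4 CPM (SD, n = 3) was 2.76-fold above baseline. Pf4 went the other way, from 1992 CPM at baseline to 532, 866 and 694 CPM in the infarcts, a mean of 697 ± 167 CPM (SD, n = 3) and 2.86-fold lower. For both genes every infarct heart lay outside the counting interval of the baseline library.

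Cxcl10 was at 42.6 CPM at baseline and at 97.6, 148 and 95.3 CPM in the infarcts, 2.67-fold higher in the mean. Cxcl9 was at 19.2 CPM at baseline and at 59.9, 21.9 and 24.7 CPM in the infarcts, a 1.85-fold difference that rested largely on replicate 1. Without that replicate the log2 ratio of Cxcl9 was 0.28 in place of 0.89. The 2 interferon-induced ligands thus peaked in different hearts, Cxcl9 in replicate 1 and Cxcl10 in replicate 2.

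Cxcl2, a neutrophil-attracting ligand, was at 744 CPM in the baseline library and at 541, 677 and 1164 CPM in the infarcts. Cxcl1 was at 28.9 CPM at baseline and at 17.7, 26.2 and 70.8 CPM. For both genes infarct replicates 1 and 2 were below baseline and replicate 3 above it. The log2 ratio was 0.09 for Cxcl2 and 0.40 for Cxcl1, and without replicate 3 it was -0.29 and -0.40. Cxcl3 was at 1.58 CPM at baseline and at 4.72, 28.7 and 3.53 CPM in the infarcts. Replicate 2 set the size of its ratio, with a log2 value of 2.96 over all infarcts and of 1.38 without that heart.

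Cxcl12 was at 14.7 CPM at baseline and at 2.53, 2.93 and 1.15 CPM in the infarcts, 6.69-fold lower in the mean. Cxcl13 was at 14.7 CPM at baseline and at 3.82, 0.320 and 6.77 CPM, 4.03-fold lower. The log2 ratio of Cxcl13 was -2.01, and it was -2.82 without replicate 3 and -1.47 without replicate 2. Both were low in every library, and Cxcl13 varied widely between the 3 infarcts, with replicate 2 lowest.

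**Figure D1:**
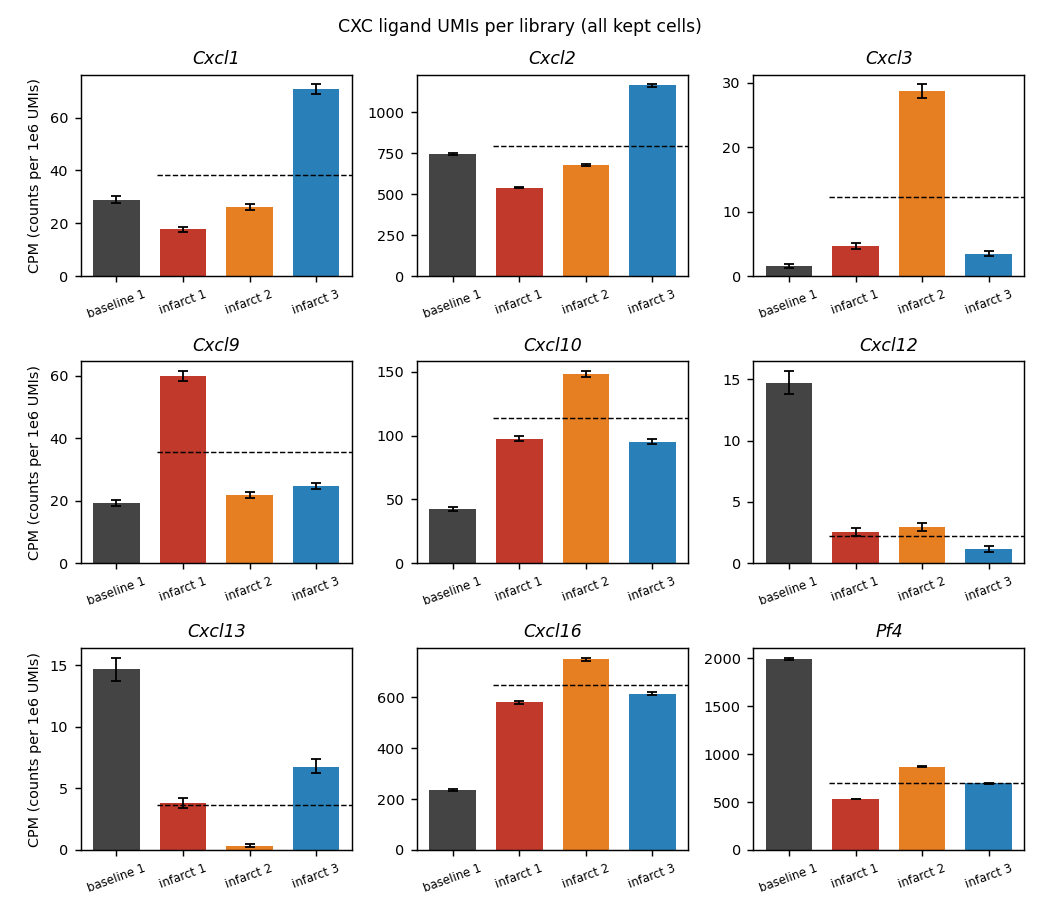
Level in CPM of the 9 CXC ligands in the baseline library (3 pooled hearts) and in the 3 infarct libraries (1 heart each). Error bars are 95% counting intervals and the dashed line is the infarct mean; Cxcl16 and Cxcl10 were above baseline in all 3 infarcts, Pf4, Cxcl12 and Cxcl13 below it in all 3, and Cxcl3 stood out in infarct 2.

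The ligands differed in how their transcripts were spread over cells. Cxcl16 was a common transcript, with at least 1 UMI in 52.4% of baseline cells and in 76.7%, 87.0% and 79.7% of infarct cells. When each cell was thinned to 4000 UMIs the shares were 47.3% at baseline and 72.6%, 84.8% and 79.2% in infarcts, so that the infarct libraries stayed above baseline at equal depth. Thinning left out 2544 baseline cells and 1291 to 1877 cells per infarct library. Non-classical monocytes, the gate with the lowest Cxcl16 levels, gave thinned shares of 4.40% at baseline and 4.76% to 13.9% in infarcts. Pf4 was found in 70.7% of thinned baseline cells and in 45.8%, 56.3% and 55.4% of infarct cells. Type 2 dendritic cells, which are not known to make Pf4, gave 16.1% at baseline and 2.39% to 7.48% in infarcts.

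By contrast, a few cells held most UMIs of the rarer ligands. Cxcl13 was found in 0.111% to 0.860% of cells, so the leading 1% of cells had to hold 100% of its UMIs. The same holds for Cxcl9 at baseline, where 0.977% of cells had it. In infarcts Cxcl9 was found in 1.68% to 3.17% of cells, and the leading 1% held 91.2% to 96.7% of its UMIs. Over all libraries the leading 1% of cells held 59.2% to 89.2% of Cxcl10 and 41.3% to 70.4% of Cxcl1. For Cxcl2 the share was 14.7% to 22.9%, and for Cxcl16 4.25% to 8.13%. Cxcl13 UMIs were so concentrated that 28 baseline cells with 5 or more of them held 905 UMIs of the library's 991, and in infarct replicate 2 only 2 cells reached 5.

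To ask which cells carried each ligand within infarcts, the summed counts of each of 13 gates were compared with those of all other gated myeloid cells of the same heart, by edgeR's quasi-likelihood test with a Benjamini-Hochberg adjusted p below 0.01 over all genes. Of 117 pairs of a member and a gate, 20 (17.1%) were higher and 41 (35.04%) lower, where 8.99% of all pairs of a gene and a gate were higher and 10.0% lower. Cxcl16 was called in 12 of 13 gates and Pf4 in 10, while Cxcl12 was called in none. Of the 61 called pairs, 30 were also called without each replicate in turn, and 31 were lost without at least 1. Where a single call is described, its loss without 1 heart is given beside it. Counts of calls include pairs that were lost in this way. Pairs of 1 gene share the same 3 hearts.

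**Figure D2:**
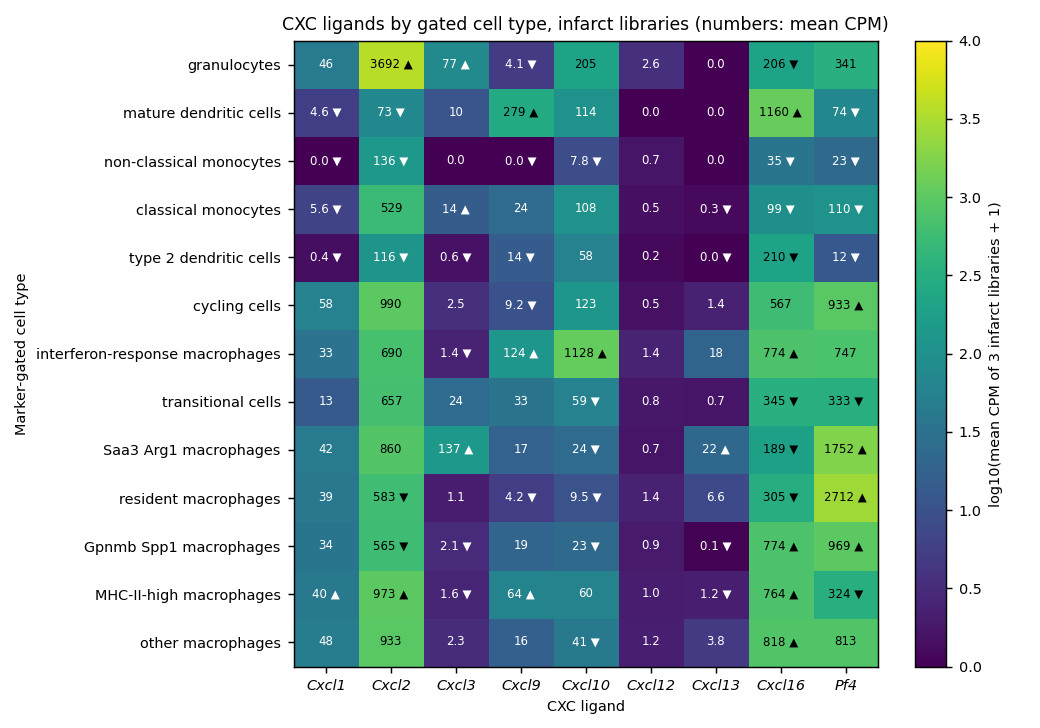
Mean CPM of each ligand over 3 infarct libraries in 13 marker-gated cell types, with colour on a log10 scale of the mean plus 1. Triangles mark pairs higher (up) or lower (down) than the other gated myeloid cells at an adjusted p below 0.01; Cxcl2 was highest in granulocytes (3692), Cxcl10 in interferon-response macrophages (1128), Cxcl16 in mature dendritic cells (1160) and Pf4 in resident macrophages (2712).

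Granulocytes, the few neutrophil-marked cells left by the Ly6G- sort, held the highest level of Cxcl2. In infarct replicates 1, 2 and 3 it reached 3355, 3405 and 4316 CPM in 85, 67 and 111 granulocytes, against 530, 649 and 1161 CPM in the other myeloid cells. The groups did not overlap, and the log2 difference was 2.18 with an SE of 0.20 (adjusted p = 1.83e-05). Cxcl3 was also higher in granulocytes, at 26.6, 148 and 55.6 CPM, a log2 difference of 3.81 (adjusted p = 7.03e-06). Cxcl1, with 24.2, 77.9 and 35.4 CPM there, was not called in granulocytes, with an adjusted p of 0.82 in edgeR. Cxcr2, the receptor of all 3 ligands, was itself at 536 to 607 CPM in granulocytes of the infarcts and at 1069 CPM in those of the baseline library. Its log2 difference from other myeloid cells was 10.74 (adjusted p = 1.47e-10). With 2 hearts left, the Cxcl2 call in granulocytes was lost without replicate 2 (adjusted p = 0.0571) or 3 (adjusted p = 0.0568). The Cxcl3 call there was lost without replicate 2 (adjusted p = 0.0411) or 3 (adjusted p = 0.0712).

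Among macrophages, the MHC-II-high gate had higher Cxcl2 than the other myeloid cells, at 725, 771 and 1423 CPM against 489, 624 and 1102 CPM. The difference was small, 0.53 on the log2 scale with an SE of 0.04 (adjusted p = 1.57e-05), and pointed the same way in 3 of 3 hearts. Cxcl1 was higher there by 0.25 (adjusted p = 0.00405), a call lost without replicate 2 (adjusted p = 0.0116) or 3 (adjusted p = 0.0305) and kept under 6 of 14 other settings. Gpnmb Spp1 macrophages, marked by genes of lipid-handling repair macrophages, had lower Cxcl2 by 0.49 (adjusted p = 1.77e-04). Resident macrophages, marked by Lyve1 and Cd163, were lower by 0.73 (adjusted p = 3.28e-04), a call lost without replicate 1 (adjusted p = 0.0649) or 3 (adjusted p = 0.0524).

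Other genes induced by NF-kappaB were measured in the same gates. Of 17 NF-kappaB response genes, 9 were higher and 2 lower in MHC-II-high macrophages, with a median log2 difference of 0.43, and 14 were lower in Gpnmb Spp1 macrophages, with a median of -0.45. Over all genes tested the medians were 0.0011 and -0.02 in these gates, with 8.77% higher and 12.2% lower in the first and 11.9% higher and 14.8% lower in the second. Of 10 immediate-early and heat-shock genes, which can also be induced while tissue is dissociated, 10 were higher in the MHC-II-high gate and 10 lower in the Gpnmb Spp1 gate. Elsewhere the NF-kappaB genes followed Cxcl2 in some gates and not in others. In granulocytes, with the highest Cxcl2, 7 of the 17 were higher and 1 lower (median 0.49). Where Cxcl2 was lower, resident macrophages had 0 higher and 6 lower (median -0.42). Non-classical monocytes had 2 higher and 6 lower (median -0.71), and type 2 dendritic cells 6 higher and 4 lower (median 0.04). In Saa3 Arg1 macrophages 9 of the 17 NF-kappaB genes were lower and 3 higher, with a median of -0.67, while Cxcl2 was not called (log2 difference -0.03, adjusted p = 0.878). In mature dendritic cells, where Cxcl2 was lower, 7 were higher and 6 lower, with a median of 0.48. Of the 10 immediate-early and heat-shock genes, 1 was higher and 2 lower in granulocytes (median -0.04). Resident macrophages had 3 higher and 2 lower (median 0.03), and non-classical monocytes 2 higher and 3 lower (median -0.01). Type 2 dendritic cells had 3 higher and 0 lower (median 0.20). Mature dendritic cells had 0 higher and 6 lower (median -0.88), and Saa3 Arg1 macrophages 0 higher and 4 lower (median -0.69). The part of dissociation in the Cxcl1 and Cxcl2 levels was not tested. Summed over libraries, these immediate-early and heat-shock genes were at 9357 CPM at baseline and at 6199, 6494 and 6986 CPM in infarct replicates 1, 2 and 3. The highest infarct sum was in the heart with the most Cxcl1 and Cxcl2.

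Monocytes and dendritic cells made little Cxcl1. Non-classical monocytes, which patrol vessel walls, held 0 UMIs of it in all 3 infarcts, where 3 UMIs would have been 6.29 to 9.70 CPM. Classical monocytes were at 3.53, 9.62 and 3.63 CPM, against 19.5, 24.99 and 73.7 CPM in the other myeloid cells (log2 difference -2.46, adjusted p = 0.00274), a call lost without replicate 1 (adjusted p = 0.0137) or 3 (adjusted p = 0.0109). The call in non-classical monocytes was lost without replicate 3 (adjusted p = 0.0235). Cxcl2 was lower in non-classical monocytes by 2.65 (log2, adjusted p = 8.37e-12) and in type 2 dendritic cells by 2.73 (adjusted p = 9.95e-06). Mature dendritic cells, which carry antigen to lymph nodes, were lower in Cxcl2 by 3.61 (adjusted p = 7.53e-08). In classical monocytes Cxcl2 was at 391, 659 and 537 CPM and was not called.

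The heart with the most Cxcl1 and Cxcl2 had them in most cell types. Among the 13 gates, infarct replicate 3 was the highest of the 3 infarcts for Cxcl2 in 10 gates. For Cxcl1 it was the highest in 9 of the 12 gates with any UMI. The higher level of that heart was thus spread over many gates.

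Cxcl3 had a separate distribution, carried by few cells. Of the Cxcl3 UMIs of infarct replicate 2, 91.8% lay in 72 cells with 5 or more each, and 33 of these cells were in a group with low C1q and high Arg1 and Saa3. This group, the C1q-low Saa3 Arg1 cells, was set apart after Cxcl3 values had been seen, so its levels are a description without a test. It was led by Ppbp, Arg1, Spp1 and Slc7a2, and held 7 cells at baseline and 197, 73 and 65 cells in infarct replicates 1, 2 and 3. Cxcl3 was there at 197, 108, 2261 and 99.9 CPM, and 55.8% of all Cxcl3 UMIs of replicate 2 came from its 73 cells.

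Pf4 and Ppbp, which lie near Cxcl3, stood out in the same group of cells of the same heart. Whether the same single cells held all of them was not tested, nor was a link to gene position. In the C1q-low Saa3 Arg1 cells Pf4 was at 675, 5726 and 671 CPM in infarct replicates 1, 2 and 3, and Ppbp at 0.811, 489 and 2.32 CPM. Ppbp and Pf4 are both known as platelet genes, so the platelet list of 7 genes was measured in these cells. Its sum was 489 CPM in replicate 2, all of it from Ppbp, with the other 6 genes at 0. Over whole libraries these 6 genes and Gp6, a platelet collagen receptor, were at 2.10 CPM or less. Clec1b was the highest of them, at 1.02 to 2.10 CPM, and the others were at 0.363 CPM or less.

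**Figure D3:**
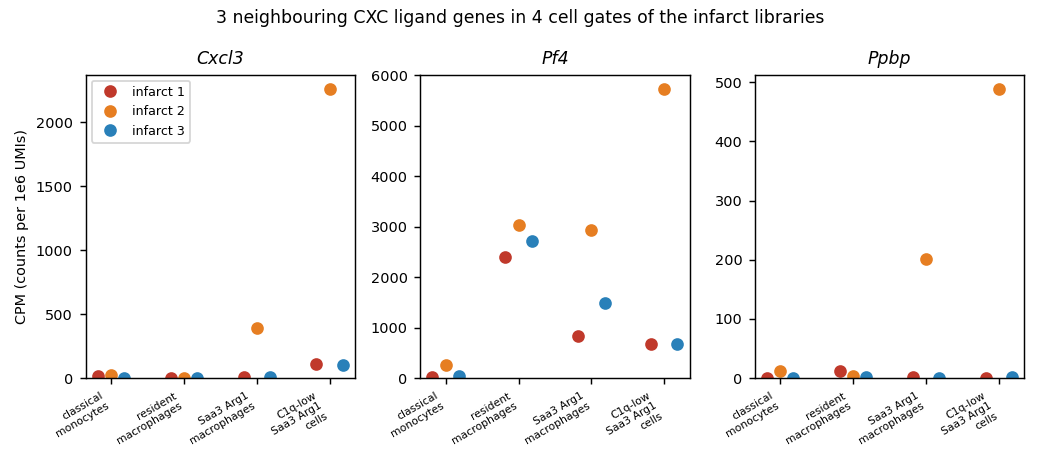
CPM of Cxcl3, Pf4 and Ppbp, neighbours on chromosome 5, in 4 gates of the 3 infarct libraries (1 point per library). In the C1q-low Saa3 Arg1 cells infarct 2 reached 2261 for Cxcl3, 5726 for Pf4 and 489 for Ppbp, while infarcts 1 and 3 stayed near 100, 670 and below 3.

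The gated Saa3 Arg1 macrophages, with higher C1q, showed the same heart apart. Cxcl3 was at 7.69, 393 and 10.4 CPM there against 2.80, 5.67 and 2.11 CPM in the other myeloid cells. It was higher in 3 of 3 hearts, with a log2 difference of 3.39 and an SE of 0.77 (adjusted p = 0.00732), and the call was lost under 4 of 14 other settings, among them without replicate 1 (adjusted p = 0.0187) and without replicate 3 (adjusted p = 0.0560). In classical monocytes Cxcl3 was at 14.4, 26.8 and 1.65 CPM, with a log2 difference of 1.84 (adjusted p = 0.00948) that did not point the same way in replicate 3, and the call was lost without replicate 1 (adjusted p = 0.0423) or 2 (adjusted p = 0.0695). Cxcl3 was lower in Gpnmb Spp1 macrophages, at 1.05, 4.34 and 0.943 CPM (log2 difference -1.42, adjusted p = 1.06e-04), but the difference turned to 1.37 with stricter gates (adjusted p = 0.105). It was also lower in type 2 dendritic cells, interferon-response macrophages and MHC-II-high macrophages, each a call lost without at least 1 heart (adjusted p = 0.0108 to 0.0270).

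Cxcl10 was concentrated in interferon-response macrophages, the gate defined by Ifit genes, Rsad2 and Isg15. These cells had 913, 1167 and 1303 CPM in infarct replicates 1, 2 and 3, against 55.1, 53.0 and 42.0 CPM in the other myeloid cells. The mean was 1128 ± 198 CPM against 50.07 ± 7.03 CPM (SD, n = 3), a fitted log2 difference of 4.62 with an SE of 0.15 (adjusted p = 1.23e-08). The call was kept under all 14 other settings. The gate held 47.5%, 66.1% and 59.9% of the Cxcl10 UMIs of these infarcts and 30.8% of those at baseline, where its level was 1077 CPM.

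The higher Cxcl10 of infarct libraries went with more cells of this gate. Interferon-response macrophages were 1.03% of baseline cells and 4.38%, 7.43% and 3.98% of infarct cells, whereas their own Cxcl10 level was inside the infarct range. Replicate 2 had the highest library level and the largest gate. Cxcl10 was also at least 2-fold above baseline, with every infarct library above it, in granulocytes, cycling cells and transitional cells. These were 3 of the 11 gates with enough counts, and by the same rule 1, Gpnmb Spp1 macrophages, was lower. The 77 baseline granulocytes had no Cxcl10 UMI, so that gate met the rule without a measured ratio. Of all pairs of a gene and a gate, 4.66% were higher and 6.17% lower. How far gate size and level within gates each made up the library difference was not tested. Lower Cxcl10 than in other myeloid cells was called in 6 gates, and the largest of these log2 differences were -4.04 in non-classical monocytes (adjusted p = 3.95e-11) and -3.76 in resident macrophages (adjusted p = 1.14e-09). The call in transitional cells was lost without replicate 1 (adjusted p = 0.147) or 3 (adjusted p = 0.116). That in Saa3 Arg1 macrophages was lost without replicate 1 (adjusted p = 0.0485) or 2 (adjusted p = 0.0227).

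Cxcl9 was shared more widely. Mature dendritic cells had 81.9, 295 and 462 CPM of it against 60.6, 21.9 and 24.4 CPM in the other myeloid cells, a log2 difference of 3.01 with an SE of 0.49 (adjusted p = 2.26e-04). This rests on 82, 48 and 29 cells, and the call was lost without replicate 2 (adjusted p = 0.138) or 3 (adjusted p = 0.0900) and with doublets removed. Interferon-response macrophages had 183, 98.8 and 89.2 CPM (log2 difference 2.26, adjusted p = 1.83e-06). MHC-II-high macrophages had 120, 32.7 and 38.0 CPM (log2 difference 1.16, adjusted p = 1.59e-04), and their value in replicate 1 was the highest of the larger macrophage gates. Cxcl9 had 0 UMIs in non-classical monocytes of every infarct, with the same limit of 6.29 to 9.70 CPM as Cxcl1.

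Of 12 interferon-gamma response genes tested, 11 were higher and 1 lower in interferon-response macrophages, with a median log2 difference of 2.24. In mature dendritic cells 8 were higher, and in MHC-II-high macrophages, where Cxcl9 was higher, 2 were higher and 4 lower. Over all genes tested the median was -0.02 in interferon-response macrophages, -0.27 in mature dendritic cells and 0.0011 in MHC-II-high macrophages, and 6.73%, 9.58% and 8.77% of genes were higher. Cxcr3, the receptor of Cxcl9 and Cxcl10, was at 2.14 CPM at baseline and at 9.53, 13.4 and 12.6 CPM in infarcts, 5.52-fold higher. Among gates it was higher in MHC-II-high macrophages, at 16.3, 23.5 and 22.2 CPM (log2 difference 1.21, adjusted p = 1.04e-06). The T or NK gate, where Cxcr3 is best known, held no more than 4 cells in any library.

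Cxcl12 reached its highest levels in endothelial cells. In 138 baseline endothelial cells it was at 1153 CPM, and in the 8 to 10 endothelial cells of each infarct library at 250 to 1083 CPM. Endothelial cells and fibroblasts together held 59.1% of its UMIs at baseline and 69.2%, 52.4% and 26.5% in infarct replicates 1, 2 and 3. Myeloid gates held 36.3% at baseline and 26.8%, 45.5% and 69.4% in these infarcts, so that in replicate 3 most of its few UMIs were in myeloid cells. Over all other cells Cxcl12 was at 6.08 CPM at baseline and at 0.785, 1.40 and 0.845 CPM in infarcts. The 6 endothelial markers summed to 191 CPM at baseline and to 35.7 to 40.0 CPM in infarcts, none of them at 0, and the part of free endothelial RNA in the remaining Cxcl12 was not tested. By edgeR, 0 of 13 gates differed in Cxcl12 from the other myeloid cells at the adjusted threshold and 2 at an unadjusted p below 0.05, and the DESeq2 Wald test called 0 of the 11 gates for which it gave an adjusted p.

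Cxcr4, the receptor of Cxcl12, was at 177 CPM at baseline and at 229, 295 and 243 CPM in infarcts. Non-classical monocytes had 414, 597 and 568 CPM of it (log2 difference 0.95, adjusted p = 1.05e-07), and Saa3 Arg1 macrophages were lower by 1.67 (adjusted p = 1.86e-05). Ackr3, a scavenging receptor of Cxcl12, was higher in Saa3 Arg1 macrophages, at 38.1, 19.2 and 20.9 CPM (log2 difference 5.45, adjusted p = 1.07e-06), and was not called in non-classical monocytes (adjusted p = 0.130).

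Among infarct gates Cxcl13 had its highest mean in the Saa3 Arg1 macrophages, at 22.7, 1.20 and 40.7 CPM in infarct replicates 1, 2 and 3 against 2.27, 0.322 and 4.34 CPM in the other myeloid cells of the same hearts. The groups overlapped between hearts, since replicate 2 had little of it anywhere. The value of that heart is 1 UMI, below the 6.57 CPM of its resident macrophages, so that the direction rests on replicates 1 and 3. The log2 difference was 3.18 with an SE of 0.19 (adjusted p = 2.68e-06), and was called under all 14 other settings. Of 8 serous cavity macrophage genes, which mark macrophages of the pericardial and peritoneal spaces, Fn1 is a marker of the gate itself and had to be higher there. The other 7 were also higher, with a median log2 difference of 5.33, where the median of all genes tested was -0.06 and 11.9% were higher. The gate took 0.0977% of baseline cells and 9.70%, 0.714% and 6.08% of infarct cells. The 10 baseline cells of that gate had Cxcl13 at 1799 CPM, and 3 of them held 5 or more of its UMIs. In infarct replicates 1, 2 and 3 the gate had 1008, 77 and 615 cells, of which 8, 0 and 10 held as many. The Cxcl13 level of this gate thus rested on few of its cells. Of the 28 baseline cells with 5 or more Cxcl13 UMIs, 19 were resident macrophages, whose level was 24.1 CPM at baseline and 3.69 to 9.67 CPM in infarcts. Cxcr5, its receptor, was at 23.3 to 52.9 CPM in mature dendritic cells of infarcts, with a log2 difference of 8.94 (adjusted p = 9.73e-09).

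Cxcl16 was higher than in the other myeloid cells in mature dendritic cells and in several macrophage gates, and lower in classical and non-classical monocytes. Mature dendritic cells had 1095, 1275 and 1109 CPM against 596, 767 and 625 CPM in the other myeloid cells, a log2 difference of 0.90 with an SE of 0.11 (adjusted p = 2.14e-05). Interferon-response, Gpnmb Spp1, MHC-II-high and other macrophages were each higher by 0.37 to 0.39 on the log2 scale, with adjusted p values of 3.19e-05 to 0.00368. Without replicate 3 interferon-response, Gpnmb Spp1 and other macrophages lost their calls (adjusted p = 0.0141 to 0.0296), and the first of these did so without replicate 1 as well (adjusted p = 0.0428). Classical monocytes had 95.6, 120 and 80.2 CPM (log2 difference -2.80, adjusted p = 4.21e-06), and non-classical monocytes had 64.7, 18.5 and 21.0 CPM (log2 difference -4.46, adjusted p = 1.99e-14). Transitional cells, with both monocyte markers and C1q, lay between, at 212, 466 and 356 CPM (log2 difference -1.06, adjusted p = 1.52e-04). Their call was lost without replicate 2 (adjusted p = 0.0117) or 3 (adjusted p = 0.0346). Type 2 dendritic cells and granulocytes were also called lower. The granulocyte call was lost without replicate 2 (adjusted p = 0.0519) or 3 (adjusted p = 0.189).

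Not all macrophages were rich in Cxcl16. Resident macrophages had 248, 429 and 239 CPM (log2 difference -1.33, adjusted p = 1.10e-07), a call lost without replicate 3 (adjusted p = 0.0313). Saa3 Arg1 macrophages had 218, 197 and 152 CPM (log2 difference -1.96, adjusted p = 7.85e-06). In no infarct did either gate reach the 716 CPM that was the lowest value of MHC-II-high macrophages. Adam10, 1 of the enzymes that shed Cxcl16, was higher by 1.36 in the Saa3 Arg1 gate (adjusted p = 8.03e-06). Cxcr6, its receptor, was at 0.0852 CPM or less in every library.

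The difference from baseline held within cell types for Cxcl16. Its infarct mean was at least 2-fold higher in 10 of 12 gates that had enough cells in all 4 libraries, with every infarct library above baseline, where 4.66% of all pairs of a gene and a gate were higher by that rule. Gpnmb Spp1 macrophages had 224 CPM of Cxcl16 at baseline and 757, 838 and 727 CPM in infarcts. MHC-II-high macrophages had 433 CPM at baseline and 716, 840 and 735 CPM in infarcts, and resident macrophages 208 CPM at baseline and 248, 429 and 239 CPM. In these last gates the infarct libraries were also all above baseline, but the mean was less than 2-fold higher. B cells, which are not known as a source of Cxcl16, also went from 116 CPM to 469, 730.5 and 431 CPM, and the part of free macrophage RNA in the lower gates was not tested.

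Among the 13 tested gates Pf4 had its highest mean level in resident macrophages. In the infarcts they had 2400, 3031 and 2706 CPM of it against 529, 814 and 693 CPM in the other myeloid cells, a log2 difference of 1.85 with an SE of 0.09 (adjusted p = 6.48e-11). Saa3 Arg1 macrophages were also higher, at 834, 2937 and 1485 CPM (log2 difference 1.16, adjusted p = 7.74e-04), a call lost without replicate 3 (adjusted p = 0.0246). So were Gpnmb Spp1 macrophages, at 869, 1212 and 826 CPM (log2 difference 0.74, adjusted p = 5.19e-04). Cycling cells were called higher as well, but the call was lost without replicate 2 (adjusted p = 0.0676) or 3 (adjusted p = 0.0297). Outside the tested gates, the C1q-low Saa3 Arg1 cells of replicate 2 were above the resident macrophages. MHC-II-high macrophages were lower, at 292, 367 and 313 CPM (log2 difference -1.18, adjusted p = 7.04e-07). The lowest levels were in type 2 dendritic cells, at 13.1, 14.2 and 8.20 CPM (log2 difference -5.83, adjusted p = 2.69e-09).

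The lower Pf4 of infarct libraries went with a smaller gate of resident macrophages. It held 27.7% of baseline cells and 67.0% of the baseline Pf4 UMIs, but 0.770% to 0.969% of infarct cells and 2.27% to 3.71% of infarct Pf4 UMIs. Within cell types Pf4 was at least 2-fold lower in 7 of 12 gates with every infarct library below baseline, where 6.17% of all pairs of a gene and a gate were lower by that rule. MHC-II-high macrophages had 1389 CPM at baseline and 292, 367 and 313 CPM in infarcts, and other macrophages 2436 CPM and 746, 853 and 838 CPM. Resident macrophages had 4411 CPM at baseline against 2400 to 3031 CPM. Gpnmb Spp1 macrophages were the 1 gate of 12 with every infarct above baseline, with 553 CPM in 72 baseline cells and 826 to 1212 CPM in infarcts. B cells had 684 CPM at baseline and 201 to 410 CPM in infarcts, so cells that are not known to make Pf4 carried less of it too. The part of free RNA in these differences was not tested.

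**Figure D4:**
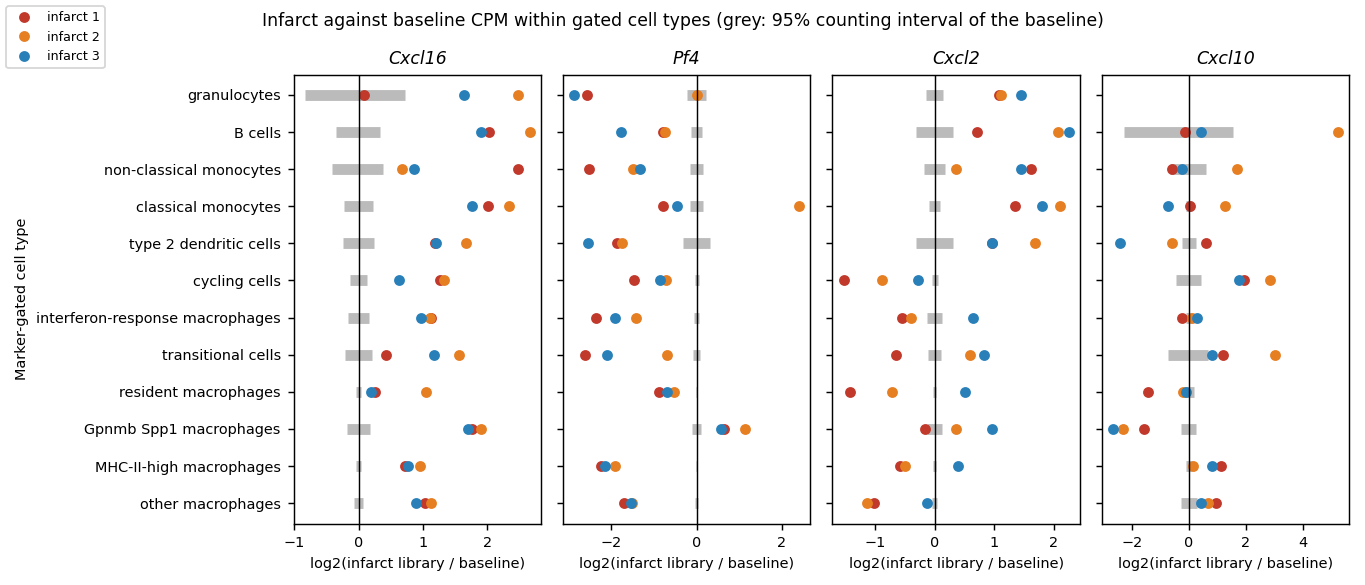
Log2 ratio of each infarct library to the baseline library for Cxcl16, Pf4, Cxcl2 and Cxcl10 in 12 gates, with the 95% counting interval of the baseline in grey. All infarct points of Cxcl16 lie above the interval in 11 of 12 gates and those of Pf4 below it in 9, with Gpnmb Spp1 macrophages above it; the Cxcl10 ratio of granulocytes is missing because their baseline had no UMI.

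Cxcl2 did not keep 1 direction across cell types. Classical monocytes were at 153 CPM at baseline and at 391, 659 and 537 CPM in infarcts, and granulocytes at 1583 CPM and at 3355, 3405 and 4316 CPM. Cycling cells were at 1725 CPM at baseline and below it in every infarct, at 600, 941 and 1428 CPM. Of the largest gates, MHC-II-high macrophages were at 1089 CPM at baseline and at 725, 771 and 1423 CPM, so that replicate 3 was again alone above baseline. B cells had 143 CPM of Cxcl2 at baseline and 233, 599 and 679 CPM in infarcts. Between gates the difference of these ratios was not tested.

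Within single macrophages, Cxcl1 and Cxcl2 were found together. In macrophage gates thinned to 4000 UMIs, 79.0%, 87.4% and 89.0% of the cells with a Cxcl1 UMI in infarct replicates 1, 2 and 3 also had Cxcl2, against 33.5%, 31.3% and 45.4% of cells without Cxcl1. The infarct means were 85.1% ± 5.38 and 36.7% ± 7.55 (SD, n = 3), and the baseline values were 81.7% and 37.8%. Cells with Cxcl3 had Cxcl2 in 77.3%, 56.4% and 96.0% of cases, but only 22, 55 and 25 such cells were counted.

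Cxcl9 and Cxcl10 formed a second pair. Of macrophages with Cxcl9, 33.1%, 25.2% and 33.3% had Cxcl10 in the infarcts, against 5.78%, 7.77% and 6.04% of those without it. Inside the interferon-response gate alone the shares were 60.6% ± 6.99 and 36.6% ± 3.64 (SD, n = 3), higher with Cxcl9 in 3 of 3 hearts. Across the pairs, Cxcl9 was not joined to Cxcl2, with 33.1% ± 9.89 of cells with Cxcl9 and 39.1% ± 8.73 of cells without it having Cxcl2. Pf4 and Cxcl16 were found together in most cells with Pf4, but Cxcl16 was as common without it. It was in 86.5% ± 4.35 of cells with Pf4 and in 87.9% ± 4.29 of cells without it. Since most cells of both kinds had Cxcl16, a higher share with Pf4 had little room to show. These shares are descriptions, with hearts and not cells as the replicates.

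**Figure D5:**
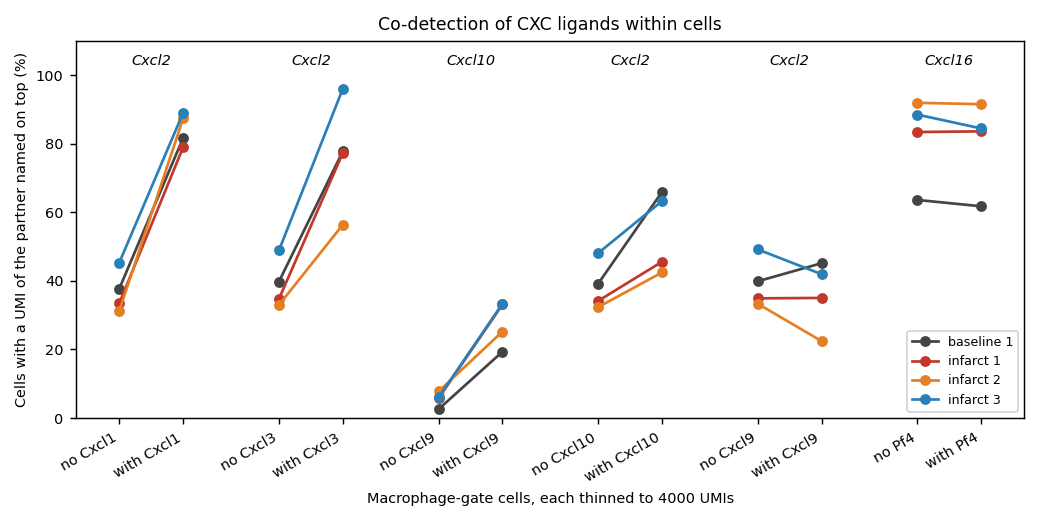
Percent of macrophage-gate cells with a UMI of the partner gene named on top, among cells without and with the gene on the axis, each cell thinned to 4000 UMIs, with 1 line per library. Cxcl2 was found in 79.0% to 89.0% of cells with Cxcl1 and in 31.3% to 45.4% of cells without it in the 3 infarcts, while Pf4 and Cxcl16 show nearly flat lines.

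The genes most like each ligand were ranked by the correlation of log levels over 52 sums of a gate and a library, among 9230 genes. These correlations are descriptions, since sums of 1 library share its depth and sums of 1 gate its cell type. Cxcl1 was most like Cxcl2 (Pearson r = 0.72), and Cxcl2 was most like Cd14 (r = 0.84), Clec5a (r = 0.83) and Ccl3 (r = 0.79). Cxcl10 followed Ifit1 and Usp18 (r = 0.80 for both), and Cxcl9 followed Gbp3 (r = 0.76). Cxcl16 followed Basp1 (r = 0.94) and Rgs10 (r = 0.90), whereas Pf4 followed Pmp22 (r = 0.96), Stab1 (r = 0.93) and Maf (r = 0.91). Cxcl12 followed Cavin2 (r = 0.98), an endothelial caveolar gene. Cxcl3 followed Nt5e (r = 0.75) and Cxcl13 followed Bmp2 (r = 0.68).

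The other CXC ligands summed to 21.5 to 26.1 CPM per library. Cxcl14 was at 16.5 CPM at baseline and at 18.1, 15.0 and 21.1 CPM in infarcts, above Cxcl12 and Cxcl13 in every library. It was higher in Saa3 Arg1 macrophages by 1.92 (log2, adjusted p = 3.94e-04) and in Gpnmb Spp1 macrophages by 0.46 (adjusted p = 0.00668). Lower Cxcl14 was called in MHC-II-high and resident macrophages, classical and non-classical monocytes, and mature and type 2 dendritic cells. Cxcl5 was at 0.0444 CPM at baseline and at 0.105 to 1.18 CPM in infarcts. Cxcl17 had 0 UMIs in every library. Cxcl11 has no row by that name in the tables and was not analysed here. Of 10 CXC and atypical receptors, 4 reached a mean of 1 CPM, of which 1, Cxcr3, was at least 2-fold higher in infarcts and 0 were 2-fold lower.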

How the data were processed

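CSF1R-EGFP+ Ly6G- heart cells had been profiled with 10x Genomics 3' libraries. Raw counts of UMIs were deposited for each cell, made by the authors with Cell Ranger on mm10 (version 3.1.0 in the methods and file headers, 3.0.1 in the submitters' processing notes). Totals were 71093963 to 97944428 UMIs per library.

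Cells with 500 to 40000 UMIs and more than 200 genes were kept, which left 41533, more than the study describes. Pairs of libraries shared 26 to 34 barcodes. Cells were gated by summed markers per 10000 UMIs at thresholds set after the marker distributions were seen, and 8.64% had no gate. Members and gene lists were chosen with earlier results of these data known. The genes named besides members belong to these lists, are among the 3 most correlated with a member or lead a group of cells. The C1q-low Saa3 Arg1 cells were set apart after Cxcl3 was seen.

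Counts were summed per library and gate. Gates with at least 20 cells in each infarct library were tested with edgeR 4.0.16 (R 4.3.3), with TMM scaling, filterByExpr, the library as a block and Benjamini-Hochberg adjustment over all genes. The pairing comes from the heart that both sums share, and the block takes up differences in level between hearts. The p-values thus weigh the difference between a gate and the other cells against its variation over the 3 hearts. The bias-adjusted dispersion was chosen after it gave fewer false calls in simulated data. Infarct and baseline were compared without a test. Doublets were kept in the main results.

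Alternatives were DESeq2 1.42.0 (size factors, Wald test), all genes unfiltered, no block, a replicate left out, other gate thresholds, at least 1000 UMIs per cell, doublets removed (the highest Scrublet scores, at 8 per 1000 for every 1000 cells), macrophages as comparator, thinning to 2000 UMIs and, added after the data were seen, the earlier edgeR dispersion. For infarct against baseline, TMM scaling and means over cells were tried. Python 3.11.15, scanpy 1.11.5, scipy 1.17.1 and matplotlib 3.10.9 were used.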

Additional observations from a re-analysis of the deposited data

Results flagged for a closer look

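Some ligands differed from baseline in opposite directions in different gates, with every infarct library on the side named. Cxcl2 had a log2 ratio of infarct to baseline of 1.81 in B cells and of -0.80 in cycling cells. Cxcl9 had 1.11 in MHC-II-high macrophages, or 0.26 without infarct replicate 1, and -1.69 in other macrophages, where its baseline UMIs came from 6 of 737 cells. The share of thinned cells with Cxcl9 in other macrophages was 0.948% at baseline and 0.822% to 1.08% in infarcts. Cxcl10 had 2.27 in cycling cells and -2.12 in Gpnmb Spp1 macrophages, where 3 of 72 baseline cells held its 119 UMIs. The share of thinned cells with Cxcl10 there went the other way, with 1.39% at baseline and 2.99% to 3.28% in infarcts. Pf4 had 0.81 in Gpnmb Spp1 macrophages and -2.10 in MHC-II-high macrophages. The differences between these gates were not tested, and the baseline is 1 library.

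The cells of no gate, which entered no comparison, also held members in all 3 infarcts above the baseline level of the same cells. Their mean over infarct libraries was 27.98 CPM for Cxcl9, 472 CPM for Cxcl16 and 577 CPM for Pf4. The Cxcl9 mean rested on replicate 1, and was 6.65 CPM without it, against 2.08 CPM at baseline. That of Pf4 was 410 CPM without replicate 2. These cells were led by haemoglobin genes and by Ctsk, Acp5 and Mmp9, genes of bone-resorbing cells.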

How the results depend on the processing

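Of pairs of a member and a gate, 61 were called. Fits of the same pairs without the replicate block, in which the 2 sums of a heart are not paired, called 26, all of them among the 61. Leaving out 1 infarct replicate gave 40 to 52 calls, and without replicate 3 the number was 40. The DESeq2 Wald test gave 53, no filter on low counts 59 and the earlier edgeR dispersion, chosen after seeing the data, 67. Of the 61, 21 were called the same way under every alternative. Reversed signs were confined, among the pairs named, to Cxcl3 in transitional cells, at -3.04 by the DESeq2 Wald test and from -10.03 to 2.63 without 1 replicate (-10.03 without replicate 2), and to Cxcl3 in Gpnmb Spp1 macrophages, at 1.37 with stricter gates. The cause was not tested. For the gated cell types, the share of cells in myeloid gates was 90.2%, and 80.7% with stricter and 93.4% with looser gates, by the construction of the thresholds. Cxcl2 with Cxcl1 was found in 82.2% of cells at 2000 UMIs against 85.1% at 4000. Against baseline, 6 members passed 2-fold, and 6 or 7 under every alternative, Cxcl9 being the addition. No paired analysis was possible for infarct against baseline because the baseline library pools 3 other hearts, and the number that its title shares with an infarct pairs nothing. Depth limits Cxcl12 and Cxcl13, which hold few UMIs in most gates.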
